A study of Mus musculus with 5 samples.

Results

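The serpins described here were 10 probe sets of 5 genes, Serpinb1a, Serpinb5, Serpinb6a, Serpinb6b and Serpinb9, among 34945 probe sets that carried a single gene symbol. They were taken as every probe set whose only symbol in the platform annotation was one of 7 listed serpin genes. The other listed genes, Serpina3g and Serpine2, had no such probe set in the annotation used and were not analysed here. All genes described thus belong to clade B, the mainly intracellular serpins, and the listed serpins of other clades are not represented. The genes were chosen from differences measured between these same arrays, so their values below are a description and none of them is a test.

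Serpins are protease inhibitors that offer a mobile reactive centre loop as bait. A target protease that cuts the loop is dragged across the serpin and stays covalently trapped, so each inhibitor molecule is used once. Clade B serpins lack a classical signal peptide and act mostly inside the cell, where in lymphocytes and myeloid cells they guard against proteases leaking from the cell's own granules and lysosomes.

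RNA had been hybridised to Affymetrix mouse arrays, with 1 array for each of 5 groups. The labels describe all of them as CD4 T cells isolated from BALB/c spleens. The groups were memory Th1 cells, effector Th1 cells labelled TOFA, effector Th1 cells labelled Rap, control effector Th1 cells and naive CD4 T cells. TOFA inhibits acetyl-CoA carboxylase, the enzyme that makes malonyl-CoA for fatty acid synthesis, while the labels do not expand Rap and give no dose for either. The protocol attached to every sample is a 5-day Th1 culture in which IL-2 was present at 15 ng/ml and IL-12 at 10 ng/ml, although only the source names of the 3 effector samples speak of cultured cells. The labels give neither the number of mice per array nor how the memory cells were made or isolated.

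With a single array per group there is neither a test nor an error for any value, and precision is limited by how few arrays there are. A difference is called higher or lower from 2-fold, that is 1 on the log2 scale. Signals are linear intensities after quantile normalization. Signals below a floor of 43.4, their 40th percentile, were raised to it before a fold was taken, so a fold against an array below the floor is a lower bound, written "at least". Since each array measured bulk RNA, more cells of a type and more RNA per cell cannot be told apart. The TOFA and Rap comparisons share the control effector array, which also enters the comparisons with naive and memory cells, so its level moves all of them.

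The arrays differed in markers of other spleen cells. Of 7 listed CD4 T cell markers, 5 were measured, and all 5, Cd4 and Cd3e among them, were above the floor on every array. Their summed signal was 29982 on the memory array, 30005, 31456 and 30192 on the TOFA, Rap and control effector arrays, and 45315 on the naive array. The sum of 8 macrophage markers was 99513 on the memory array, against 449.5, 203 and 213 on the TOFA, Rap and control effector arrays and 1201 on the naive array, with 0, 4, 7, 6 and 4 of them below the floor in that order. The sum of 8 neutrophil markers was 12727 in memory cells, 190.2, 205 and 201 in the same 3 effector arrays and 5931 in naive cells, with 1, 8, 7, 7 and 0 below the floor. Sums of 7 measured B cell markers were 49076, 2276, 2601, 1845 and 32379 in the same order, with 0, 2, 1, 1 and 0 below the floor. Ifng, the gene of the defining Th1 cytokine, read 116 in memory, 2301 in TOFA, 980.1 in Rap and 4108 in control effector cells and 6.47 in naive cells. The sum of 5 Th1 markers, Ifng among them, was 20140.5, 13359, 13718.5, 13473 and 4709 in that order, with 1, 0, 0, 0 and 2 below the floor. Of these 5, 3 stood above control effector cells and 2 below in TOFA cells, and likewise in Rap cells. In memory cells 2 stood above and 3 below.

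**Figure D1:**
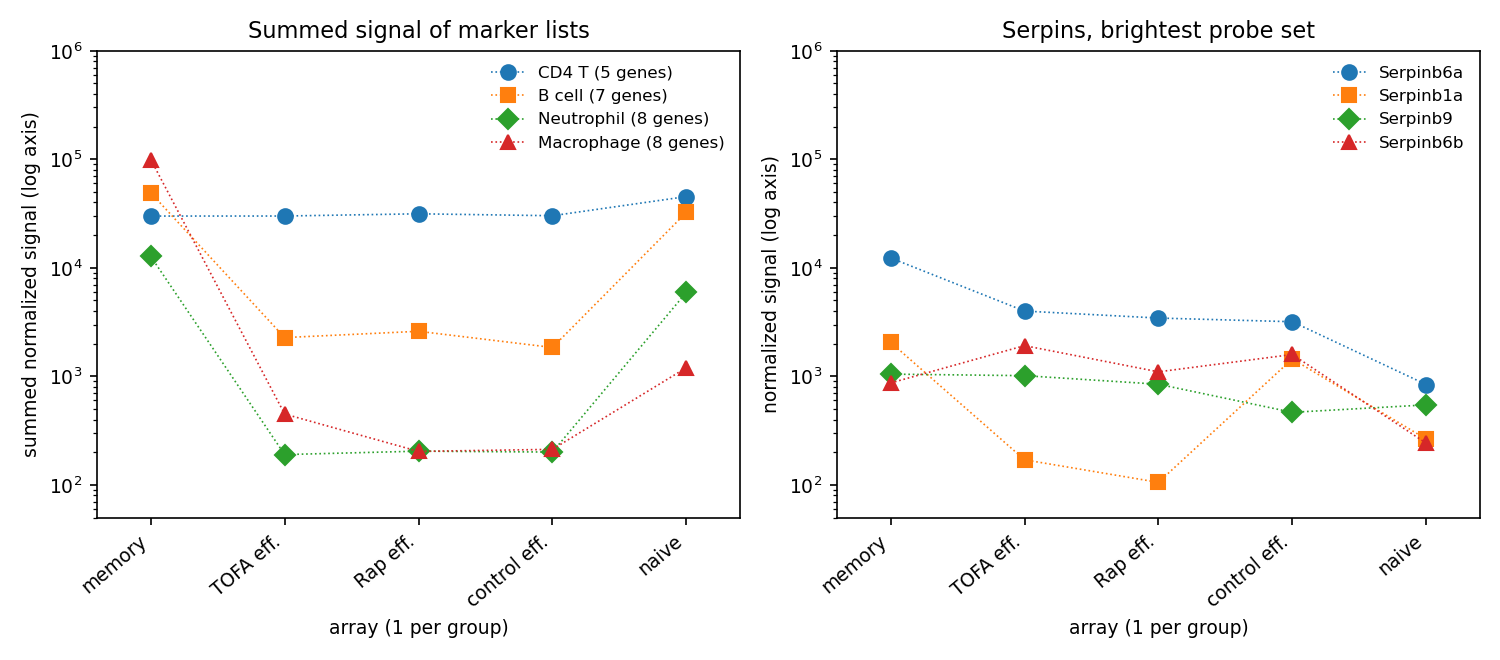
The left panel plots the summed normalized signal of 4 marker lists and the right panel the normalized signal of 4 serpins on their brightest probe set, both on log axes, for the 5 arrays (1 point per array, dotted lines only guide the eye). The macrophage sum reaches 99513 on the memory array and stays between 203 and 1201 on the other arrays, while the CD4 T cell sum lies between 29982 and 45315 throughout.

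Effector cells labelled TOFA or Rap carried less signal for Serpinb1a and Serpinb5 and, with TOFA, more for Serpinb9 than control effector cells, while Serpinb6a and Serpinb6b lay within 2-fold. Of the 10 serpin probe sets, 6 were at least 2-fold lower in TOFA cells and 2 were higher, where 2.10% of all single-symbol probe sets compared were lower, 2.49% higher and 4.59% either. The 6 lower ones are the 2 of Serpinb1a and the 4 of Serpinb5, and the 2 higher ones are both of Serpinb9. In Rap cells the same 6 probe sets were lower, against 3.59% of all probe sets, and 0 of the 10 were higher, against 2.06%, with 5.65% in either direction. The median over the 10 was -1.33 on the log2 scale in both comparisons, with 0.01 over all probe sets in each, and it is set by the 6 probe sets of 2 genes. Since the genes were chosen for such differences, nothing is read from these shares. The sum of 6 dendritic cell markers was 696 in TOFA and 828 in Rap cells against 1778 in control effector cells. Of these genes 4, 3 and 4 were below the floor in that order. Most of that sum was H2-Ab1, a class II antigen presentation gene. It was 2.76-fold lower in TOFA and 2.39-fold lower in Rap cells, and was the only marker past 2-fold. Of the markers compared, 1 of 3 stood above control in TOFA cells and 2 of 4 in Rap cells. Xcr1 and Itgax were below the floor on all 3 arrays. The part of these markers in the serpin differences was not tested.

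Serpinb1a encodes an inhibitor of neutrophil elastase, cathepsin G and proteinase 3, and is best known from neutrophils. On probe set 1416318_at its signal was 2058 in memory cells, 170.3 in TOFA effector cells, 105 in Rap effector cells, 1448 in control effector cells and 264 in naive cells. The memory and control effector arrays stood high, and the TOFA and Rap arrays lay even below the naive array. The gene was 8.50-fold lower in TOFA and 13.7-fold lower in Rap than in control effector cells. Among probe sets above the floor on both arrays, those were rank 2 of 20496 and rank 3 of 20381, counted from the most negative difference.

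The other Serpinb1a probe set, 1448301_s_at, whose suffix marks probes that can match several transcripts, read 255 in memory cells, 26.9 and 27.2 in TOFA and Rap cells, 109 in control effector cells and 92.8 in naive cells. TOFA and Rap were again the lowest arrays, here below the floor, and each was at least 2.51-fold lower than control effector cells. The probe sets differed between control effector and naive cells, with the control array 5.48-fold higher than the naive array on 1416318_at and 1.17-fold apart on 1448301_s_at. TOFA and Rap cells were 1.61-fold apart on 1416318_at, under the 2-fold limit. The high control effector signal came with 7 of 8 neutrophil markers below the floor on that array. The exception was Elane, at 67.3, while S100a8 read 20.3. The part of neutrophils in the Serpinb1a signals was not tested.

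Serpinb5 encodes maspin, a serpin that does not inhibit proteases and is known in human epithelium as a tumour suppressor. The sequence around its start site is shown because the gene was above the floor only on effector arrays. This RefSeq window of 300 bases, from 250 before to 50 after the start, is chr1:106860925-106861224 on the plus strand of GRCm38.p6, with motif matches in capitals.
Serpinb5: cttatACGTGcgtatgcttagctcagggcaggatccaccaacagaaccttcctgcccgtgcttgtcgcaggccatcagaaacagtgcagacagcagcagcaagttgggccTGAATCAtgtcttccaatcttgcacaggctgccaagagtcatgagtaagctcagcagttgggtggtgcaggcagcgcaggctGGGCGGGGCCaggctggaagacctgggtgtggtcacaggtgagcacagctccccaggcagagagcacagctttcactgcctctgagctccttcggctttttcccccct
The capitals mark ACGTG, the core of HIF sites, at bases 6 to 10 counted from the 5′ end, TGANTCA, the AP-1 motif, at bases 111 to 117, and a motif that resembles NF-kB sites at bases 193 to 202, with no overlap among them. Searched on both strands, they occur in 19.6%, 7.81% and 50.8% of all 32851 windows of this length, and a match describes letters only.

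On probe set 1421752_a_at Serpinb5 read 3.47 in memory cells, 45.6 in TOFA cells, 100.1 in Rap cells, 381 in control effector cells and 15.4 in naive cells. Control effector cells stood alone at the top, TOFA cells were just above the floor, and memory and naive cells were below it. The signal was 8.35-fold lower in TOFA and 3.81-fold lower in Rap than in control effector cells, and 2.19-fold lower in TOFA than in Rap cells. The last difference was the only 1 of 10 probe sets past 2-fold between TOFA and Rap, of 6 that could be compared, where 1.39% of all probe sets were lower, 2.87% higher and 4.26% either. It rests on a TOFA signal beside the floor and came to -0.69 on the log2 scale when 43.4 was added to every signal in place of the floor.

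The 3 other Serpinb5 probe sets, 1424623_at, 1441941_x_at and 1438856_x_at, were above the floor in control effector cells alone, with signals of 194, 122 and 108. The suffixes of 1421752_a_at, 1441941_x_at and 1438856_x_at also mark probes that can match several transcripts. Of the Serpinb5 probe sets only 1424623_at has no such suffix. On 1424623_at TOFA and Rap cells read 21.4 and 33.7, so that both were at least 4.48-fold lower. The bounds were 2.81-fold on 1441941_x_at and 2.50-fold on 1438856_x_at in each comparison. With 60th-percentile signals, 150.5, as the floor, only 1421752_a_at and 1424623_at can still be compared. TOFA cells then lie below the floor on 1421752_a_at, whose log2 difference became a bound of -1.34 in place of -3.06.

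Serpinb9, known as Spi6 in mice, inhibits granzyme B and protects killer lymphocytes and dendritic cells from it. Its start site window is shown because it is the serpin that was higher with TOFA. It is chr13:33004291-33004590 on the plus strand of GRCm38.p6 in RefSeq.
Serpinb9: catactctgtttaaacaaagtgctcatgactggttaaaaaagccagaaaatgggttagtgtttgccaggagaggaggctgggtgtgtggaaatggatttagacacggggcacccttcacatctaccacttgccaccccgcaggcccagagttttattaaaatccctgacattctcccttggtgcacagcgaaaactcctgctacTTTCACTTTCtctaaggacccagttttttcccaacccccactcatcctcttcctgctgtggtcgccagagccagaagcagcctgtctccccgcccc
The capitals at bases 205 to 214, TTTCACTTTC, are the single match among the 6 motifs searched, to a motif that resembles the interferon-stimulated response element, on the opposite strand. That motif is found in 3.44% of all windows.

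Serpinb9 on probe set 1422601_at read 1048 in memory cells, 1015 in TOFA cells, 846 in Rap cells, 466 in control effector cells and 546 in naive cells. Control effector and naive cells were the low pair, and memory and TOFA cells were highest. On 1439790_at the signals were 314, 239.99, 201, 116 and 159 in that order, which ranks the arrays identically. TOFA cells were 2.18-fold and 2.06-fold higher than control effector cells on these probe sets, just past the limit. Rap cells were 1.82-fold and 1.73-fold above control effector cells, under it, and TOFA and Rap cells were 1.20-fold apart on both. With 1 array each, whether TOFA and Rap differ in Serpinb9 was not tested. Of 4 macrophage markers compared between TOFA and control effector cells, Mpeg1 was higher, at 154.7 against 7.47. Cd14, at 74.4 against 19.9, and Csf1r, at 125.9 against 84.0, also stood above the control signal, Adgre1 stood below it, at 44.6 against 59.8, and the median over the 4 was 0.68 on the log2 scale. The other 4 macrophage markers were below the floor on both arrays. The part of these markers in the Serpinb9 difference was not tested.

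**Figure D2:**
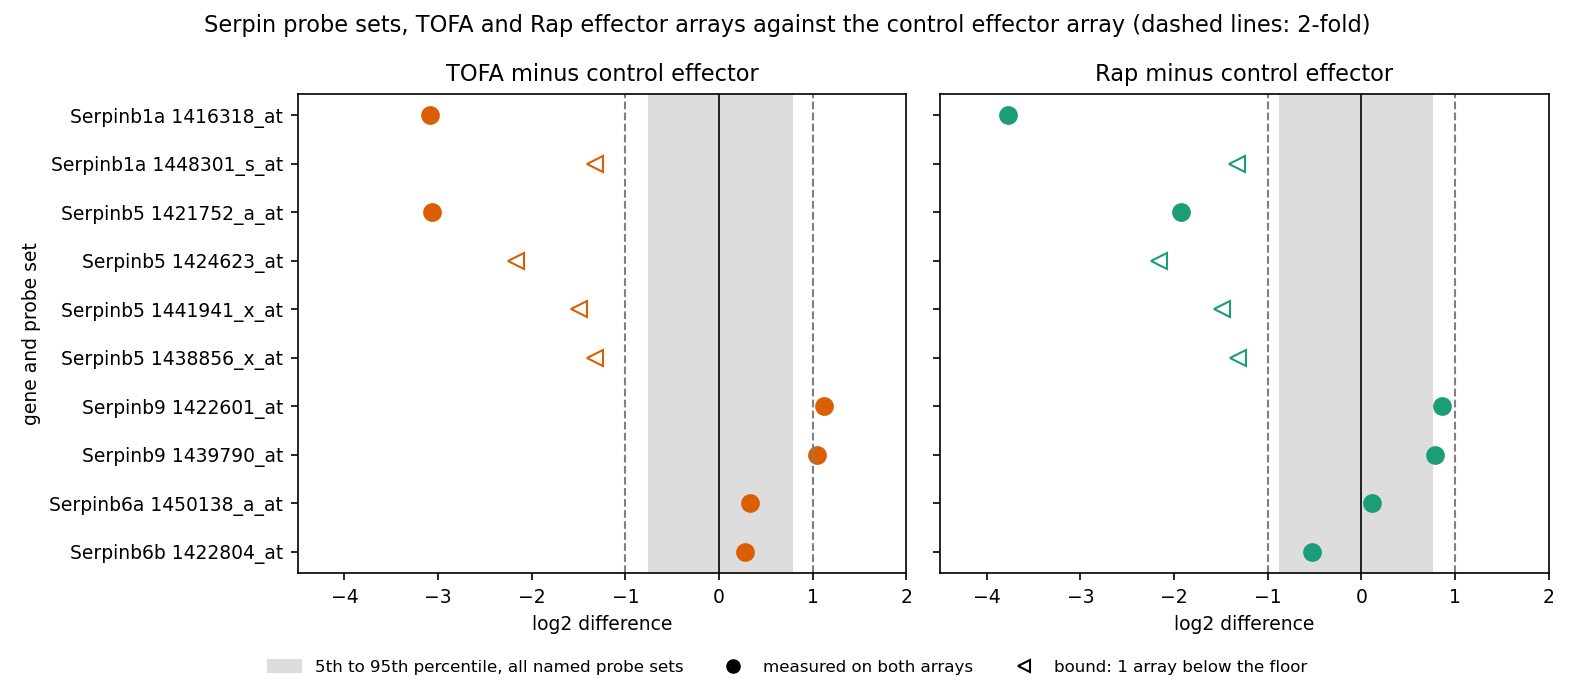
Log2 differences of the 10 serpin probe sets (rows) in TOFA (left) and Rap (right) minus control effector cells, from 1 array each, with filled points for probe sets above the floor on both arrays, open triangles for bounds, dashed lines at 2-fold and grey for the 5th to 95th percentile of all single-symbol probe sets (-0.74 to 0.78 for TOFA, -0.87 to 0.75 for Rap). Serpinb1a and Serpinb5 lie left of the grey band in both panels, Serpinb9 at 1.12 and 1.04 for TOFA and 0.86 and 0.79 for Rap, and Serpinb6a and Serpinb6b inside it.

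Serpinb6a encodes an inhibitor of cathepsin G. Its probe set 1450138_a_at read 12329.7 in memory cells, 3995 in TOFA, 3445 in Rap and 3186 in control effector cells and 840.4 in naive cells. The suffix of this probe set also marks probes that can match several transcripts. The effector arrays formed a narrow group between the memory and the naive array, with TOFA 1.25-fold and Rap 1.08-fold above control. One of the 2 RefSeq windows of Serpinb6a is shown because it holds STAT motifs, to which the STAT proteins downstream of IL-2 and IL-12 bind. It is chr13:34002745-34003044 on the minus strand of GRCm38.p6.
Serpinb6a: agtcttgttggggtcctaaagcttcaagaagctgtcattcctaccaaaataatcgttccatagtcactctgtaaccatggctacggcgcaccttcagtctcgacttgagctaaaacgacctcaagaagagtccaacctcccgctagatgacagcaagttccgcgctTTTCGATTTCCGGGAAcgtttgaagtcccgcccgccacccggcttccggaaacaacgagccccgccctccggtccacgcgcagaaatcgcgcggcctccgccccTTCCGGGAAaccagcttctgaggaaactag
The capitals mark TTCNNNGAA, the STAT motif, as TTCCGGGAA at bases 174 to 182 and again at bases 271 to 279, and the interferon-response-like motif on the opposite strand at bases 167 to 176, which overlaps the first of them. The STAT motif is found in 8.30% of all windows, but this window was picked for holding it, so nothing is read from that share. These matches too describe letters only. The other Serpinb6a window held 2 overlapping NF-kB-like matches, and TGACGTCA, the cAMP response element, present in 1.79% of all windows, was in none of the windows of Serpinb5, Serpinb6a, Serpinb6b and Serpinb9.

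Serpinb6b encodes a close relative of Serpinb6a that inhibits granzyme A in mice. On 1422804_at it read 869 in memory cells, 1919 in TOFA, 1100.7 in Rap and 1589.7 in control effector cells, and 242 in naive cells. All 3 effector arrays stood above the memory array and the naive array was lowest. TOFA cells were 1.21-fold above and Rap cells 1.44-fold below control effector cells, and TOFA and Rap cells were 1.74-fold apart, all under 2-fold. No motif searched was found in its window. Each of these relatives had 1 probe set, so neither pattern could be set against another probe set of the gene.

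**Figure D3:**
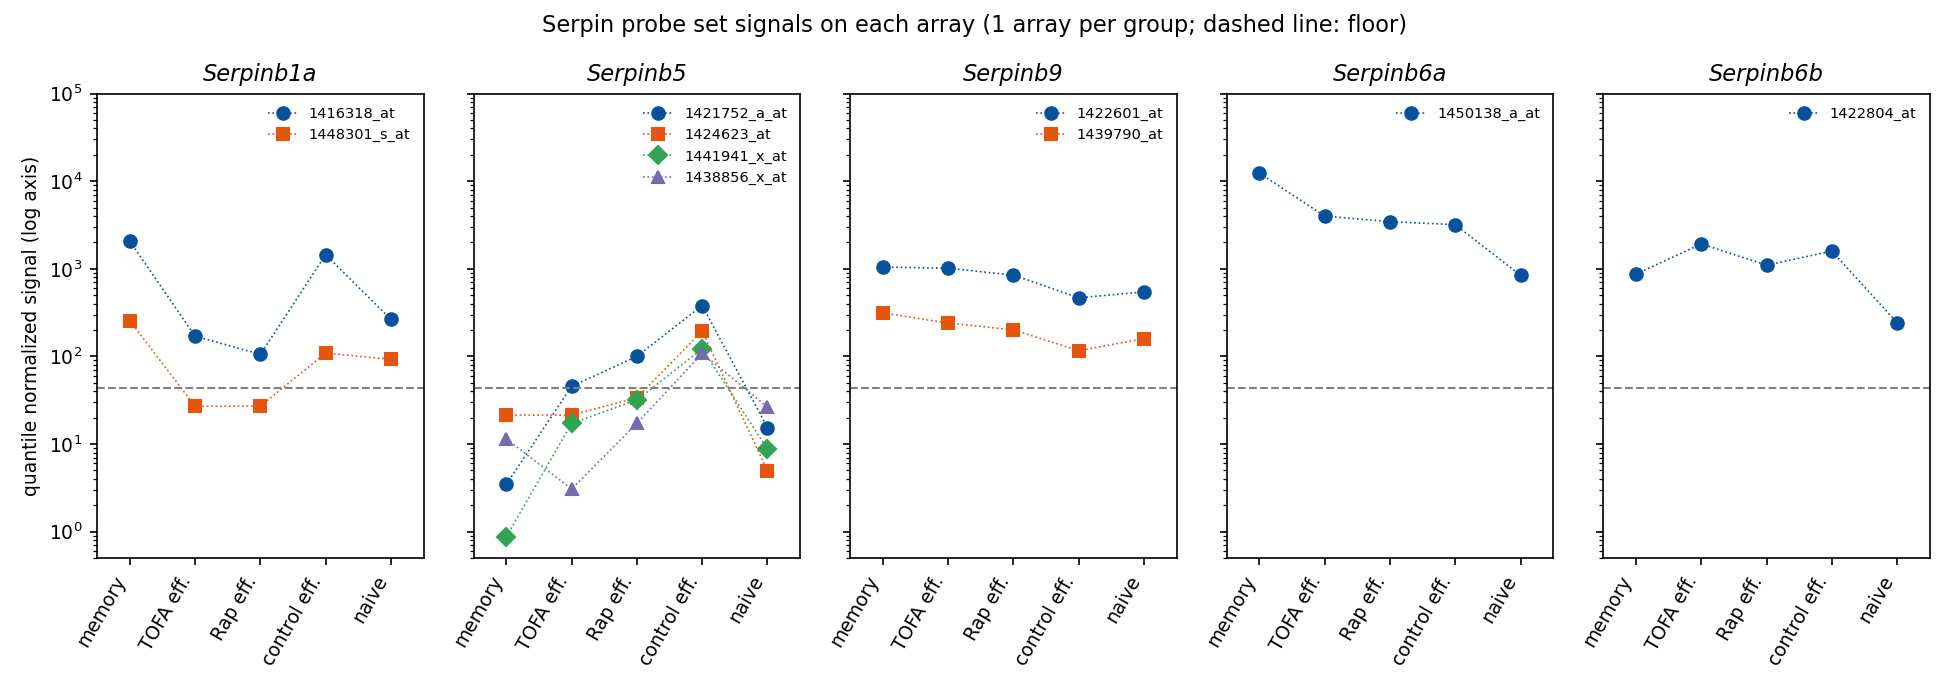
Normalized signal (log axis) of each serpin probe set on the 5 arrays, 1 point per array, in a panel per gene, with the floor of 43.4 dashed and dotted lines to guide the eye. Serpinb1a is high on the memory and control effector arrays, Serpinb5 is above the floor on all 4 probe sets in control effector cells alone, and Serpinb6a has its highest signal, 12329.7, in memory cells.

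Compared with naive cells, control effector cells carried more of every serpin described except Serpinb9, on the brightest probe set of each. Of 10 probe sets, 7 were at least 2-fold higher and 0 lower, where 14.3% of all probe sets were higher, 12.3% lower and 26.6% either. Serpinb1a was 5.48-fold higher on 1416318_at, Serpinb6b 6.57-fold and Serpinb6a 3.79-fold, and Serpinb5 was at least 8.78-fold higher. Serpinb9 stood 1.17-fold and 1.37-fold lower on its probe sets, under the limit. The median over the 10 was 1.71 on the log2 scale, with -0.01 over all probe sets. Neutrophil and B cell markers ran the other way, with 7 of 8 and 6 of 7 lower in control effector than in naive cells, and their part in these differences was not tested.

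In memory cells 4 of the 6 probe sets compared with naive cells were higher and 0 lower, where 10.2% and 5.97% of all probe sets were, and 16.1% in either direction. They were Serpinb6a, 14.7-fold, Serpinb1a, 7.79-fold and 2.74-fold, and Serpinb6b, 3.59-fold. Serpinb9 missed the limit on both probe sets, at 1.92-fold and 1.98-fold higher, and all 4 of Serpinb5 were below the floor on both arrays. All 8 macrophage markers were at least 2-fold higher on the memory array too, with a median of 6.65 on the log2 scale, as were 6 of 7 B cell markers. C1qa read 16550 against 7.72 and Vcam1 23380 against 4.37, while Cd3e read 2087 against 2932. Whether the memory signals of Serpinb6a and Serpinb1a come from T cells or from these other cells was not tested.

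Against control effector cells, memory cells had 4 serpin probe sets higher, 4 lower and 2 under 2-fold, where 12.6% of all were higher, 14.4% lower and 27.0% either. Serpinb6a was 3.87-fold higher, Serpinb9 2.25-fold and 2.70-fold, and Serpinb1a 2.34-fold on 1448301_s_at but 1.42-fold on 1416318_at. All 4 Serpinb5 probe sets were lower, by at least 8.78-fold on 1421752_a_at, and Serpinb6b stood 1.83-fold lower. All 8 macrophage markers were higher in this comparison as well, and their part was not tested. The share of calls that were higher moved from 46.7% to 64.5% against control effector cells, and from 63.0% to 78.7% against naive cells, when signals were used as deposited. That scaling shifted the median of all probe sets by 0.26 and 0.12 on the log2 scale, and the calls of the serpins named here on their brightest probe set did not change with it.

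Of 35 other serpin genes measured, 19 were below the floor on all 5 arrays and 2, Serpinb6e and Serpini1, were above it on all. In TOFA cells 3 of 10 compared were lower and 0 higher than in control effector cells, and in Rap cells 3 of 12 were lower and 0 higher, where 2.15% and 3.91% of all genes were lower, and 2.47% and 1.82% higher. They were Serpinf1, Serpinf2 and Serpinb9b in both comparisons, the last pair named after their values were seen. Serpinf1, which encodes the secreted non-inhibitory serpin PEDF, read 36.3 in memory, 235 in TOFA, 125 in Rap, 961 in control effector and 39.5 in naive cells. It was thus above the floor on effector arrays only, as Serpinb5 was, and was 4.09-fold lower in TOFA and 7.69-fold lower in Rap than in control effector cells. Serpinf2, the plasmin inhibitor alpha-2-antiplasmin, read 13.95 in TOFA and 52.8 in Rap cells against 116 in control effector cells, at least 2.68-fold lower in TOFA and 2.20-fold lower in Rap. Serpinb9b read 40.9 and 26.3 in TOFA and Rap cells against 88.4 in control effector cells, at least 2.04-fold lower in each. Both Serpinb9b calls were lost with signals as deposited, at a bound of -0.91 on the log2 scale in each comparison. They were also lost with an added constant, at -0.65 in TOFA and -0.92 in Rap cells. The added constant also ended the Serpinf2 call in Rap cells, at -0.73, so the 3 lower genes counted include calls close to the limit.

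In the naive comparison 2 of 9 other serpin genes were higher in control effector cells, Serpinf1 at least 22.2-fold and Serpinb9b at least 2.04-fold, and 1 was lower, Serpini1, the neuronal serpin neuroserpin, at 83.4 against 467. The shares over all genes were 15.9% higher and 11.4% lower. Serpinb9b and Serpini1 are named here after their values were seen. The Serpinb9b call was lost with signals as deposited, at a bound of 0.91, and with an added constant, at 0.74 on the log2 scale. Of 10 compared between memory and naive cells 4 were higher and 0 lower, and of 12 between memory and control effector cells 5 were higher and 1 lower, where 12.6% and 4.14% of all genes were higher and lower in the first comparison and 14.5% and 14.1% in the second. The macrophage and B cell marker signals of the memory array stand beside these counts too, and their part was not tested. In RefSeq order, all 14 protein-coding genes between Serpinb1a and Serpinb6a are serpins, Serpinb6b and Serpinb9 among them. Of the 12 that are not described above, 7 had a single-symbol probe set, and 5 of these were below the floor on all arrays. The exceptions were Serpinb9b and Serpinb6e, and Serpinb6e, a relative of Serpinb6a, read 241 in memory, 180.4 in TOFA, 237 in Rap, 303 in control effector and 306 in naive cells, all within 2-fold.

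**Figure D4:**
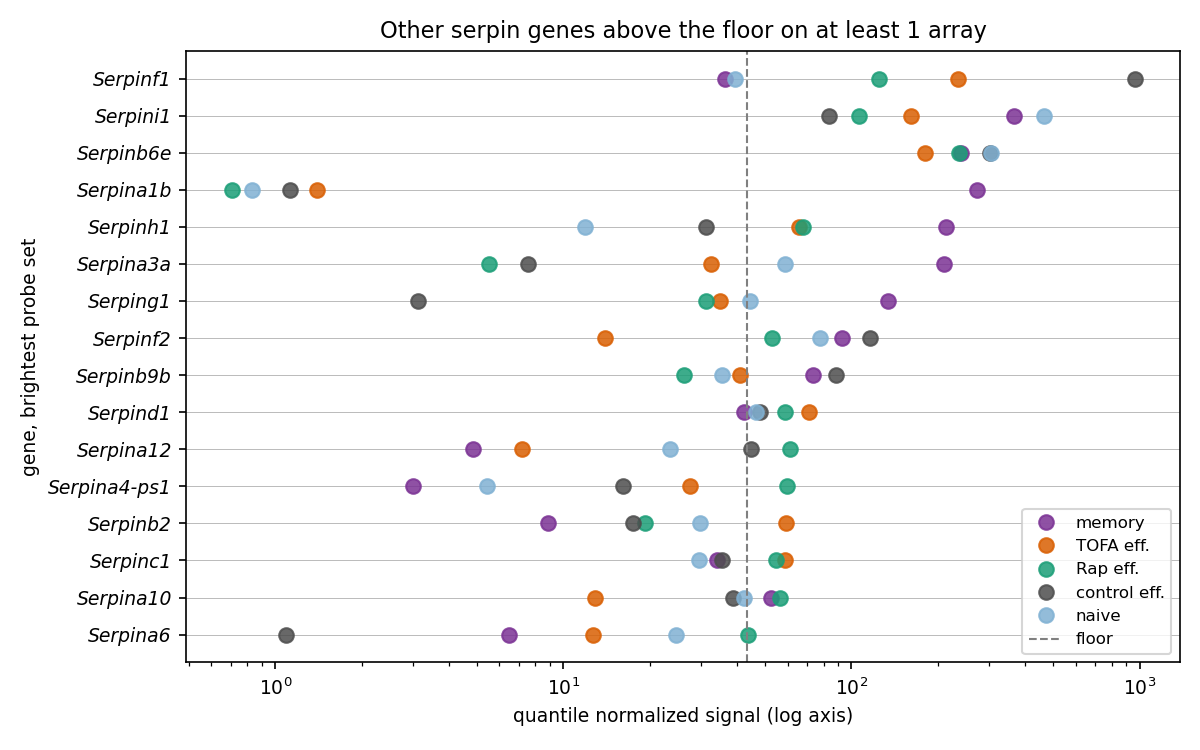
Normalized signal (log axis) of the 16 other serpin genes above the floor of 43.4 (dashed) on at least 1 array, each on its brightest probe set, with 1 coloured point per array. Serpinf1 stands out with 961 in control effector cells, against 235 in TOFA and 125 in Rap cells, and is below the floor in memory and naive cells.

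The proteases that serpins restrain, with their granule partners, were described from a list of 28 genes of which 27 were measured. The list also held genes of receptors, Plaur, F2r and Lrp1, which are in the counts below. In TOFA cells 2 of 21 compared were higher and 3 lower than in control effector cells, where 2.47% of all genes were higher and 2.15% lower, with a median of -0.27 on the log2 scale and 0.01 over all genes. Gzmb, the granzyme B gene whose product Serpinb9 inhibits, read 223 in memory, 13979 in TOFA, 26476 in Rap, 28439.8 in control effector and 266 in naive cells. It was 2.03-fold lower in TOFA cells, in which Serpinb9 was higher, and 1.07-fold apart in Rap cells. The TOFA difference, -1.02 on the log2 scale, was under 2-fold with signals as deposited, at -0.96, and with the memory array left out of the normalization, at -0.97. Gzma, the granzyme A gene, was 2.02-fold lower in TOFA cells at 116 against 235, but under 2-fold with an added constant, at -0.80 on the log2 scale. With a floor at the 60th percentile its TOFA signal lies below the floor, so the -0.64 obtained there is a bound. Prf1, the perforin gene, was under the limit at 111 against 187.

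The other calls in TOFA cells were Lrp1, a receptor that clears serpin-protease complexes, at least 2.27-fold lower, Casp1, an inflammatory caspase gene, 2.31-fold higher, and Plaur, the urokinase receptor gene, at least 2.75-fold higher. With an added constant the Plaur difference was 0.99 and the Lrp1 difference -0.80 on the log2 scale, both under 2-fold. Lrp1 and Casp1 are named after their values were seen. In Rap cells 0 of 21 were past 2-fold in either direction, where 1.82% of all genes were higher and 3.91% lower, so that a count of 0 in 21 genes is near the background. In control effector against naive cells 4 of 23 were higher and 8 lower, where 15.9% of all genes were higher and 11.4% lower, with a median of -0.30 and 0.04 over all genes. Gzmb was 107-fold higher, while Ctsh, a lysosomal cathepsin gene, was 5.28-fold lower, Gzma 3.60-fold, Prf1 3.58-fold, Plat, the tissue plasminogen activator gene, 3.47-fold and Plaur at least 3.22-fold lower. Markers of other cells were lower in control effector than in naive cells too, 7 of 8 for neutrophils and 6 of 7 for B cells. Of 4 NK and CD8 T cell markers compared, 2 were lower, Cd8a at 65.3 against 163 and Cd8b1 at 252 against 540, and 1, Eomes, was higher. The part of these markers in the falls was not tested. The serine proteases that Serpinb1a inhibits were at or near the floor in effector cells, Elane reading 36.8 in TOFA and 39.6 in Rap against 67.3 in control cells and Prtn3 13.1 and 26.9 against 53.0, with Ctsg below the floor in all 3. Elane and Prtn3 are named after their values were seen. As both were below the floor in TOFA and Rap cells, the bounds are at least 1.55-fold lower for Elane and at least 1.22-fold lower for Prtn3, and whether they passed 2-fold was not measurable.

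The list of other protease inhibitors held cystatins, metalloprotease inhibitors and caspase inhibitors, among others. Of 16 measured of 18 listed, 12 could be compared in TOFA and in Rap against control effector cells, and 0 were past 2-fold in either, with medians of -0.11 and -0.14. With 2.47% higher and 2.15% lower over all genes for TOFA, and 1.82% and 3.91% for Rap, a count of 0 in 12 is near the background. Cst7, an inhibitor of lysosomal cathepsins, read 2233, 2061 and 1953 in TOFA, Rap and control effector cells and, against 419 in naive cells, was 4.66-fold higher on the control effector array. In that comparison 2 of 13 were higher, Cst7 and Timp1, a metalloprotease inhibitor gene that was at least 3.01-fold higher, and 1 was lower, the leukocyte protease inhibitor gene Slpi, 3.15-fold, where 15.9% of all genes were higher and 11.4% lower. Neutrophil markers were lower in control effector than in naive cells as well, 7 of 8 of them, and their part in the Slpi difference was not tested. With a floor at the 60th percentile the control effector signal of Slpi, 77.7, lies below the floor. The difference is then a bound of -0.70 on the log2 scale, and whether it passed 2-fold was not measurable. In memory against naive cells 7 of 12 were higher and 0 lower, against 12.6% and 4.14% of all genes, with Slpi at 10842 against 245 and Wfdc17, a gene of the Slpi-like family, at 985 against 83.5, again with the macrophage markers high on the memory array and their part not tested. Timp2 and A2m were under 2-fold between control effector and naive cells, at 664 against 1095 and 68.1 against 39.2.

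The genes most like each serpin were taken as those with the smallest root mean square difference of log2 signals over the 5 arrays, after each profile was centred on its mean, among 9943 genes. For Serpinb1a they were Maged1, at 0.40, Cdc42ep2, at 0.71, and Metrnl, at 0.75. Maged1 read 815 in memory, 48.2 in TOFA, 15.6 in Rap, 277 in control effector and 74.8 in naive cells, high on the arrays on which Serpinb1a was high. For Serpinb5 they were Cuzd1, at 0.29, Dnm1, at 0.33, and Tle6, at 0.35, all with their highest signal in control effector cells. Serpinb9 was followed most closely by Slc20a2, at 0.13, Tdrkh, at 0.15, and Ifi27, an interferon-induced gene, at 0.19, Serpinb6a by Sowahc, at 0.16, Rims3, at 0.24, and Pbx3, at 0.25, and Serpinb6b by Clcn5, at 0.22, Dusp16, at 0.23, and Ift43, at 0.23. Between the serpins themselves the distance was 0.97 or more on their brightest probe sets. The genes named above are the nearest of 9943, while only 5 serpins could be near each other, so nothing is read from that contrast.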

How the data were processed

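The authors deposited a linear signal intensity for 45101 probe sets on each of 5 arrays. Per the submitters' processing notes the authors made them with GCOS and Affymetrix Expression Console, and neither a version nor a summary method is known here. Their mean after trimming 2% at each end was 500.003 on every array, and array medians lay between 63.1 and 99.5. After 64 control probe sets were removed, signals were quantile normalized over the 5 arrays, raised to a floor of 43.4 (40th percentile) and compared on the log2 scale with Python 3.11.15 and pandas 2.3.3. Groups follow the sample titles, with 1 array each, so differences were counted from 2-fold and not tested. The counting was tested on simulated data.

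Symbols come from the platform annotation of 2016. A single symbol was given for 34945 probe sets, several for 932 and none for 9160, and the gene identifier of 34741 of the 34945 matched RefSeq. The brightest probe set stood for a gene in lists. All serpins listed were described, other serpins were named when past 2-fold between effector arrays with a signal of at least 150.5, and up to 6 genes were named from each of the protease and inhibitor lists by their largest difference in TOFA against control effector or control effector against naive cells. Promoter sequences are RefSeq's for GRCm38.p6 and were found for 4 of the 5 genes. Members and lists were chosen with earlier results of these data known. The alternatives were no quantile normalization, a lower floor (20th percentile), a higher floor (60th percentile), an added constant, leaving out probe sets whose suffix marks several transcripts, the mean over probe sets and, chosen after seeing the data, normalization with the memory array left out.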

Additional observations from a re-analysis of the deposited data

How the results depend on the processing

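Across 170 values of the 5 serpin genes under these alternatives, 170 kept their direction and 169 their side of the 2-fold limit, the exception being Serpinb5 in TOFA against Rap cells with an added constant. Serpinb1a, as a mean over its probe sets, stood at -2.21 in TOFA and -2.55 in Rap against control effector cells. Comparisons are given as TOFA and Rap against control, TOFA against Rap, control effector against naive, memory against naive and memory against control effector. The numbers of serpin probe sets past 2-fold, 8, 6, 1, 7, 4 and 8, became 4, 2, 0, 3, 2 and 3 without the probe sets that can match several transcripts, since fewer probe sets remained. Among those left out were the brightest Serpinb5 probe set and the only Serpinb6a probe set, so Serpinb6a has no value under that setting. With a floor at the 60th percentile the first 4 and the last became 3, 2, 0, 4 and 4, and with an added constant TOFA against Rap became 0. The numbers over all probe sets, 1098, 1352, 1018, 6500, 3938 and 6655, became 4594, 5036, 4527, 10622, 7836 and 10448 with a floor at the 20th percentile. With a floor at the 60th percentile they became 358, 474 and 362 for the effector comparisons, 2134 for memory against naive and 4408 for memory against control effector, as fewer probe sets could be compared. With the memory array left out of the normalization, serpin counts were 8, 6, 1 and 7 in the first 4 comparisons. No paired analysis was possible because each group has 1 array, and for the same reason no replicate could be left out. Signals near the floor limit what can be said of Serpinb5 and of the second Serpinb1a probe set.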
